A study of Mus musculus with 3 samples.

Results

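The lysosome and the vacuolar ATPase are described here through 33 genes, followed across single cells of mouse blastocysts that differed in keratin 8 and keratin 18. The genes were chosen by name, 33 of the 23154 gene symbols in the deposited count tables, and the rule uses no measured value, although results of these data were known when the list was drawn up. They comprise 9 proteases, 9 other hydrolases and lumenal proteins, 6 membrane proteins, 1 transcription factor and 8 subunits or accessory proteins of the vacuolar ATPase (V-ATPase). A count was found in at least 1 cell for every one of them except Atp6v0b, which is listed at 0 in all cells. Lipa, which encodes the acid lipase that cleaves cholesteryl esters, had 20 counts, all in 1 cell. Both were too sparse to be tested, and 31 of 33 were tested.

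The cells came from mouse embryos of the Klf2-H2Bmcherry line, in which a nuclear fluorescent protein reports on the Klf2 locus, a gene known to respond to fluid flow. Embryos were collected at embryonic day 2.5, cultured without movement or with shaking, and taken apart at E3.5, the blastocyst stage; single cells of mCherry-positive embryos were picked by mouth pipette. All 3 libraries, called replicates 1 to 3, belong to 1 group with this genotype, and which of the cells had been shaken is not in the labels. Both cultures are therefore mixed, and no comparison of culture conditions was made. No label ties the libraries to separate embryos or cultures, so the p-values below speak only of the spread among these 3 libraries, which may be a technical one.

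The blastocyst has an outer epithelium, the trophectoderm (TE), which carries keratin filaments of Krt8 and Krt18, takes up maternal material and later forms the placenta. The inner cells become epiblast (EPI) or primitive endoderm (PrE), an endocytic and secretory epithelium. Lysosomes degrade what cells take up or discard with hydrolases that work in acid, and the V-ATPase, a rotary pump with a membrane sector V0 and a cytosolic sector V1, makes that acid. The transcription factor TFEB is known to bind the sequence CACGTG near many lysosomal genes and is held in the cytosol by mTORC1.

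Barcodes with counts for 2000 or more genes were taken as cells, which left 83, 64 and 78 cells in replicates 1 to 3, or 225 of 288 barcodes. The same set of 96 barcodes served each library, and 46 barcode numbers were retained in all 3 libraries. Within each library, cells whose summed Krt8 and Krt18 level was above the library's median were called Krt-high and the others Krt-low. Levels are given as CPM, the usual scaling of a gene's counts to the total of its cell or class, and the median lay at 312, 1200 and 913 CPM. The 2 classes are ranges of one level and not cell types: 24, 21 and 16 cells lay within 2-fold of the dividing value. In the sums of all cells, 8 of the 15 TE markers passed the edgeR test below as higher in Krt-high cells, beside 0.821% of all genes. A positive log2 fold change was found for 13 of the 15. The EPI and PrE markers were present in both classes, and among EPI markers Sox2 is listed at 0 in all cells.

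Replicate 1 held 19 cells that stood apart. Ribosomal protein genes made up a median of 2.15% of their counts against 21.3% in the other 64 cells of that library. All 19 were Krt-low, and they held 60.0% of the counts of the Krt-low cells of replicate 1. Summed markers of oocytes (Zp1, Zp2, Zp3, Gdf9, Bmp15 and Nlrp5) stood at 467 CPM in them and at 39.0 CPM in the other cells of replicate 1. By the same bound, a ribosomal share under the library's median divided by 3, replicate 2 held 1 such cell and replicate 3 held 2. Their part in the results was not tested as a cause. The comparison of Krt-high with Krt-low cells was designed for all 225 cells. It was repeated on the remaining 203 cells with the median drawn anew, a choice made after the data had been seen.

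**Figure D1:**
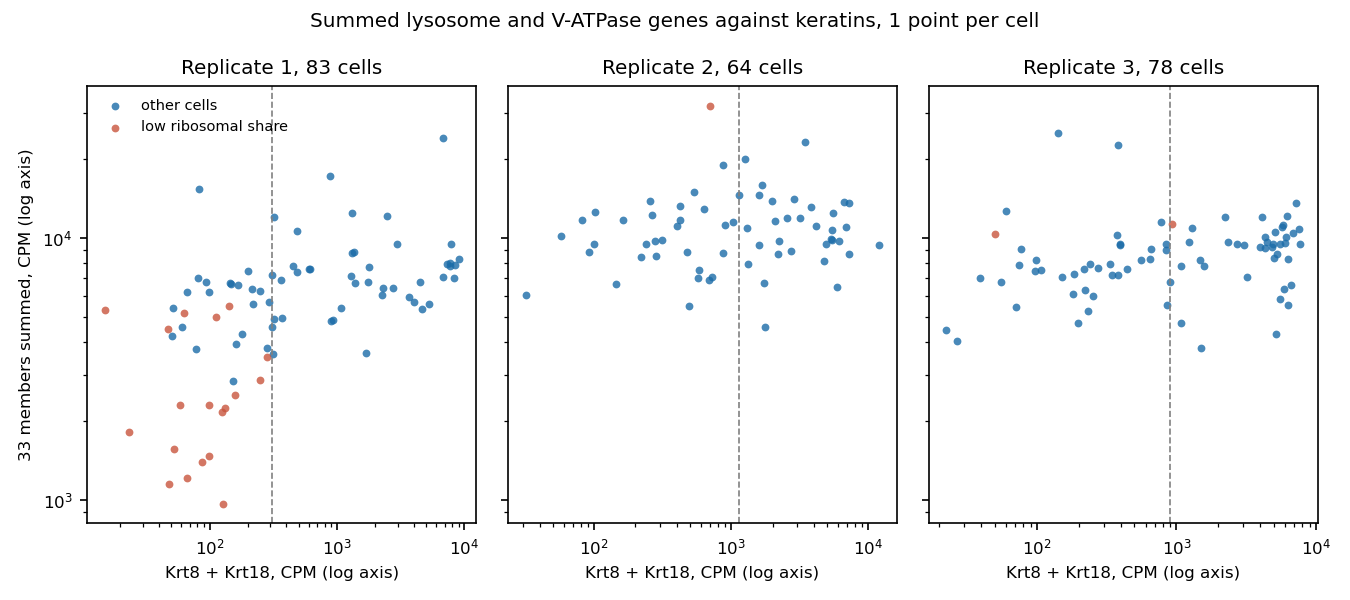
Each point is 1 cell, with the summed level of Krt8 and Krt18 on the x axis and the summed level of the 33 genes on the y axis, both in CPM on log axes, in 1 panel per library. The dashed line divides Krt-low from Krt-high cells; in replicate 1 the 19 cells of low ribosomal share lie left of it, with a median of 2301 CPM against 6720 CPM in the other cells.

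The 33 genes together took up 0.527%, 1.14% and 0.882% of the counts in cells of replicates 1 to 3. Per cell, their sum in all cells of replicate 1 ran from 3609 to 24076 CPM in Krt-high cells, with a median of 7134, and from 969 to 15352 CPM in Krt-low cells, with a median of 4505. The medians were 10806 and 9968 CPM in replicate 2 and 9477 and 7613 CPM in replicate 3. The ranges of single cells overlapped in every library. Spearman's rho between the sum and the keratin level was 0.61, 0.11 and 0.35 over the 83, 64 and 78 cells, and 0.42, 0.12 and 0.38 over the 64, 63 and 76 cells that remained without those of low ribosomal share. These are descriptions over cells that share a library.

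Across the 225 cells no member passed the test. Counts of each class were summed per library and compared by edgeR's quasi-likelihood test, blocked by library. Adjusted p-values here are Benjamini-Hochberg values over all 12796 genes tested, and a gene was called below 0.05. Of these genes 0.821% (105) were called higher and 0.352% (45) lower in Krt-high cells, while DESeq2 called 280 higher and 360 lower. Among the 31 members 0 were called by edgeR, and DESeq2 called 1, Tfeb. An unadjusted edgeR p below 0.05 was found for 3 members (Tfeb, Hexa and Psap), beside 1240 of all 12796 genes. The members' median log2 fold change was 0.29, beside 0.08 over all genes tested.

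Without the 22 cells of low ribosomal share, 4 members were higher in Krt-high cells (Tfeb, Cd63, Psap and Hexa) and 2 were lower (Ctsz and Ctsb), while 25 did not pass. Over the 12515 genes of that fit, 2.34% (293) were called higher and 1.07% (134) lower, and by DESeq2 761 higher and 629 lower. The members' median log2 fold change was 0.10, beside 0.00 over all genes. The calls ran in both directions, so this signed median does not show how many members differed. An unadjusted edgeR p below 0.05 was found for 11 of the 31 members, beside 2115 of all 12515 genes. Taking libraries one at a time, 14 of 31 members were higher in Krt-high cells in each of the 3 libraries, beside 20.1% of all genes, and 8 were lower in each, beside 21.5%. On these cells the share that was higher was thus above that of all genes, and the share that was lower differed little from it. Large differences were no more frequent there. With all cells included, 14 of 31 members were higher in each library, beside 19.3% of all genes. Only 2 were then lower in each, beside 15.4%.

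Without the cells of low ribosomal share, a difference of at least 1.5-fold within a library was no more common among members than among all genes. In replicate 1, 6 members were at least 1.5-fold higher, beside 21.4% of all genes, and 4 lower, beside 25.2%. In replicate 2 the counts were 7 higher, beside 30.1%, and 4 lower, beside 26.2%. In replicate 3 they were 6 higher, beside 24.1%, and 7 lower, beside 25.4%. Tfeb and Hexa were past 1.5-fold upward, and Ctsb and Ctsz downward, in each of the 3 libraries. This differed in replicate 1 with all cells included. There 19 of 31 members were at least 1.5-fold higher, beside 43.5% of all genes, and 4 lower, beside 36.1%. Replicate 2 then had 6 higher, beside 30.3%, and 4 lower, beside 26.4%. Replicate 3 had 6 higher, beside 24.4%, and 7 lower, beside 25.8%.

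**Figure D2:**
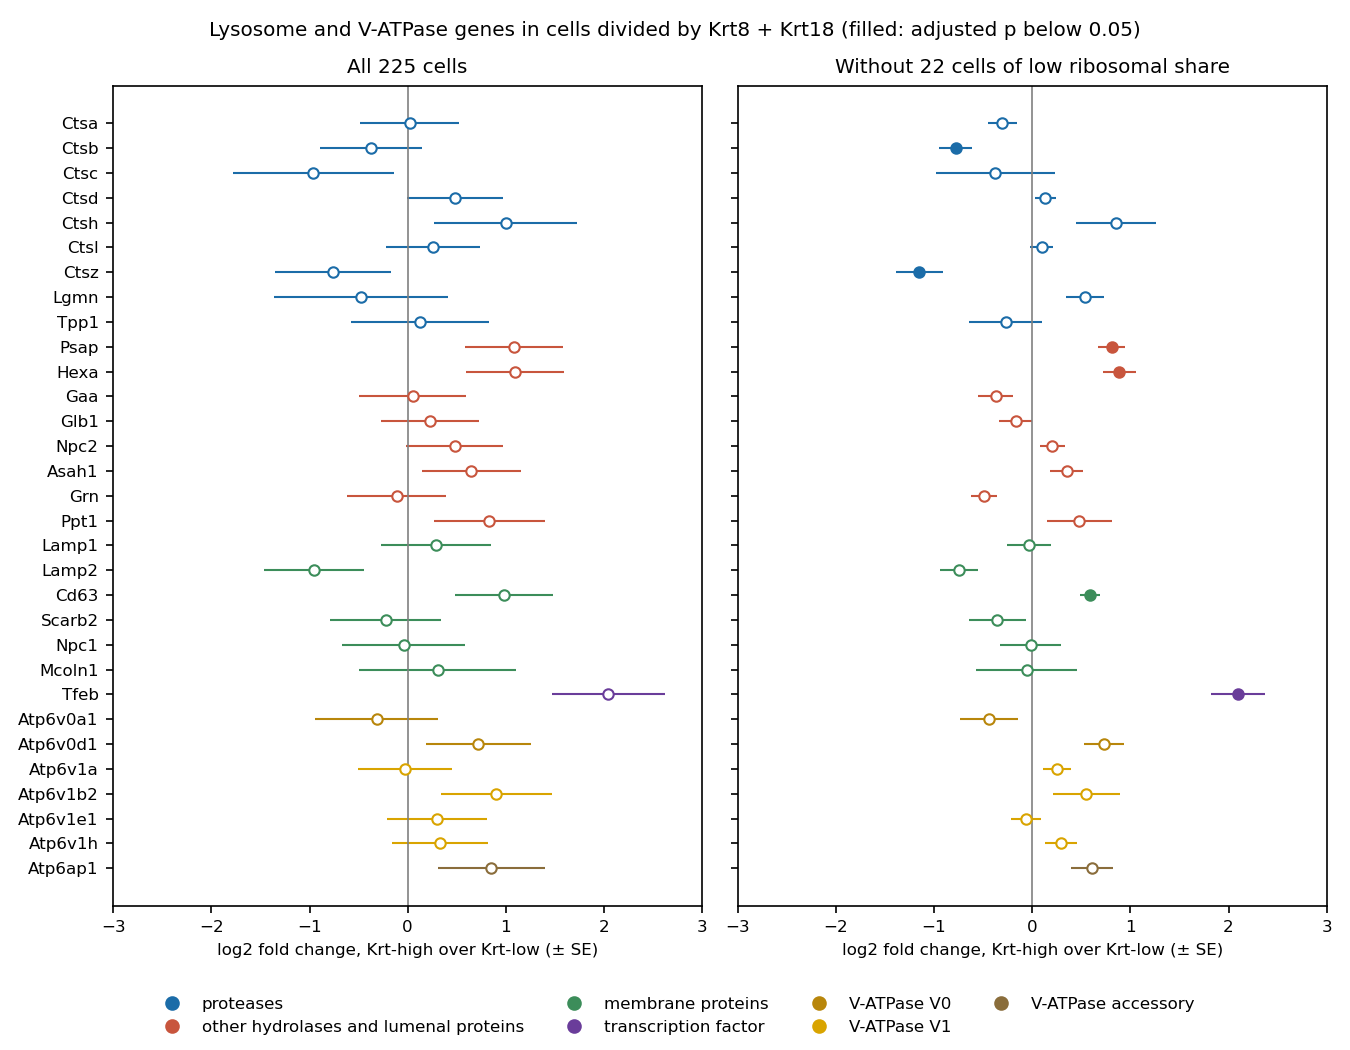
Points are log2 fold changes of Krt-high over Krt-low cells from edgeR, with bars of 1 SE, for the 31 tested genes in the order of their roles, with all 225 cells on the left and 203 cells on the right. Filled points have an adjusted p below 0.05: 0 on the left, and Tfeb, Cd63, Psap, Hexa, Ctsz and Ctsb on the right.

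Tfeb showed the largest difference of the members. It lies on chromosome 17 at 47737030 to 47792419 on the plus strand (mm10, GENCODE M21), and its exons overlap no other gene. In the 203 cells its level was 128, 150.4 and 64.4 CPM in Krt-high cells of replicates 1 to 3, or 114 ± 44.6 (SD, n = 3). In Krt-low cells it was 30.4, 24.1 and 22.6 CPM, or 25.7 ± 4.13 (SD, n = 3). All 3 Krt-high sums lay above all 3 Krt-low sums. The log2 fold change was 2.10 with an SE of 0.27, a 4.29-fold difference (edgeR, adjusted p = 0.00689). Leaving out replicate 1, 2 or 3 in turn gave adjusted p = 0.032, 0.0238 and 0.00686. With all 225 cells the levels were 110.3, 149 and 64.4 against 29.9, 23.9 and 22.8 CPM, the log2 fold change was 2.05 with an SE of 0.58, and the adjusted p was 0.0872. Over that comparison's alternatives the adjusted p of Tfeb ran from 0.00689 to 0.77. Among them, leaving out replicate 1, 2 or 3 in turn gave edgeR adjusted p = 0.0258, 0.77 and 0.532.

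The share of cells with a Tfeb count did not differ in the same way in each library. It was found in 28 of 32 Krt-high and 20 of 32 Krt-low cells of replicate 1, in 19 of 31 and 19 of 32 of replicate 2, and in 33 of 38 and 24 of 38 of replicate 3. In replicate 2 the level differed while the number of cells with a count did not. Median totals per cell were 310803 and 263847 counts in Krt-high and Krt-low cells of replicate 1, 411537 and 305899 in replicate 2, and 675948 and 560752 in replicate 3, so Krt-high cells were the deeper ones. Across quartiles of keratin level within a library, the mean of 3 libraries was 21.3 ± 12.6, 28.6 ± 10.0, 68.3 ± 27.9 and 151 ± 47.0 CPM (SD) from the lowest to the highest quartile. Replicate 2 did not follow that order in the lower quartiles, at 30.9 and then 17.1 CPM.

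The sequence to which TFEB is known to bind was looked for in promoter windows from RefSeq (GRCm38.p6) that run from 250 bases before to 50 bases after a gene's start. A window was found for 27 of the 33 members. The letters CACGTG, which read the same on both strands, were present in 11 of the 27 (40.7%), beside 8.09% of 27025 genes with windows of the same length. The longer TCACGTGA, which contains CACGTG and also reads the same on both strands, was in 5 of the 27 (18.5%), beside 1.12%. These are Ctsa, Ctsd, Mcoln1, Atp6v0d1 and Atp6v1a. Stretches around 1 match per gene are shown because they carry the letters TFEB is known to bind. They stop at or before the start site, except that the Atp6v0d1 match itself crosses it. Capitals mark TCACGTGA, and each is written on the gene's own strand.
Ctsa, chr2:164833720-164833772, plus strand: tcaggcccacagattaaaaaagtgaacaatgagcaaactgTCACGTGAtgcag
Ctsd, chr7:142387879-142387966, minus strand: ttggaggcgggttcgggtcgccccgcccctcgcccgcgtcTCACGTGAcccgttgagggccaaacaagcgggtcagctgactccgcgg
Mcoln1, chr8:3500433-3500518, plus strand: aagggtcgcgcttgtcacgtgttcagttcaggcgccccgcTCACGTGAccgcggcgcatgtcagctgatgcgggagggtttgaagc
Atp6v0d1, chr8:105566061-105566108, minus strand: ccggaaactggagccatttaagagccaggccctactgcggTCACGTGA
Atp6v1a, chr16:44139344-44139431, minus strand: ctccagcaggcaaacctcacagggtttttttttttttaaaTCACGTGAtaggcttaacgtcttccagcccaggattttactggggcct

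Too few members with this sequence were tested for a count of calls to say anything about them. Of all genes, edgeR called 2.34% higher and 1.07% lower on the 203 cells. Of the 11 members with CACGTG, 10 were tested; edgeR called 0 of them with all cells, where 0 had an unadjusted p below 0.05, and 0 without the cells of low ribosomal share, where 2 had one. DESeq2 called 1 of them on the 203 cells, Atp6v0d1. EdgeR also called Atp6v0d1 between the outer tertiles of the keratin level and without cells of high total. Over all genes, 2115 of 12515 had an unadjusted edgeR p below 0.05 on the 203 cells. The median log2 fold change of the 10 was 0.03 on the 203 cells, beside 0.00 for all genes. Of the 6 called members 5 had a promoter window and 0 of those held CACGTG, Tfeb itself among them in each of its 3 windows. CACGTG was in 8.09% of all genes with windows, so 0 of 5 is not read as a result. A match is a property of the letters, and no binding was measured.

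Of the hydrolases and lumenal proteins other than proteases, Psap and Hexa were higher in Krt-high cells. Psap encodes prosaposin, which is cut into the saposins that present sphingolipids to hydrolases, and Hexa encodes the alpha subunit of beta-hexosaminidase, which removes the terminal sugar of the ganglioside GM2. Psap, at chromosome 10, 60277627 to 60302597, was measured at 679, 1762 and 665 CPM in Krt-high cells and at 372, 1247 and 335 CPM in Krt-low cells of the 203. The classes overlapped because replicate 2 was high in both, and within each library the Krt-high cells were above the Krt-low cells. The log2 fold change was 0.81 with an SE of 0.14 (edgeR, adjusted p = 0.0196). The call was lost without replicate 1 (adjusted p = 0.0904) or replicate 3 (adjusted p = 0.125).

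Hexa, at chromosome 9, 59539540 to 59565109, was at 269.9, 419.7 and 311 CPM in Krt-high cells and at 178, 241 and 137 CPM in Krt-low cells, without overlap. The log2 fold change was 0.89 with an SE of 0.17 (edgeR, adjusted p = 0.0299), and leaving out any 1 library ended the call, with adjusted p from 0.0575 to 0.187. An exon of Hexa overlaps the gene Tmem202 on the opposite strand. With the strand setting not given, reads within the shared bases cannot be assigned to 1 of the 2 genes. The length of the shared stretch and its part in the counts were not measured. The same holds for Ctsa, Grn, Ppt1, Lamp1, Npc1, Atp6v0b, Atp6v1e1 and Atp6v1h, whose exons also overlap a gene on the opposite strand. With all 225 cells the log2 fold changes were 1.08 for Psap (SE 0.50) and 1.09 for Hexa (SE 0.50), and neither passed, at adjusted p = 0.472 and 0.46 in edgeR.

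The 6 other members of this role that could be tested did not pass on the 203 cells. Grn, which encodes progranulin, a lumenal glycoprotein cut into granulins, went the other way from Psap and Hexa. It was at 209, 784 and 287 CPM in Krt-high cells against 277, 1119.7 and 444 CPM in Krt-low cells, lower in each library. Its log2 fold change was -0.49 with an SE of 0.13 (edgeR, adjusted p = 0.0855). Gaa, acid alpha-glucosidase, which breaks down glycogen, had a log2 fold change of -0.37, and Glb1, acid beta-galactosidase, one of -0.17. Npc2, a carrier of cholesterol in the lumen, was at 0.20, Asah1, acid ceramidase, at 0.35, and Ppt1, a thioesterase that removes palmitate from proteins, at 0.48.

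Among the 9 proteases, Ctsb and Ctsz were lower in Krt-high cells and 7 did not pass. Ctsb encodes cathepsin B, a cysteine protease that also trims peptides from their ends, and Ctsz encodes cathepsin Z, a carboxypeptidase. Ctsb, at chromosome 14, 63122462 to 63145923, was at 205, 319 and 194 CPM in Krt-high cells and at 329, 699 and 296 CPM in Krt-low cells of the 203. The Krt-high cells were below the Krt-low cells in each library, and the classes overlapped across libraries. The log2 fold change was -0.78 with an SE of 0.17, a 1.72-fold difference (edgeR, adjusted p = 0.0457). Leaving out any 1 library ended the call, with adjusted p from 0.0891 to 0.116.

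Ctsz, at chromosome 2, 174427493 to 174439039, was at 82.4, 39.1 and 57.8 CPM in Krt-high cells against 139, 84.4 and 183 CPM in Krt-low cells, without overlap. The log2 fold change was -1.15 with an SE of 0.24, a 2.22-fold difference (edgeR, adjusted p = 0.0408). The call was kept without replicate 1 (adjusted p = 0.048) and lost without replicate 2 (adjusted p = 0.0965) or replicate 3 (adjusted p = 0.204). Exons of Ctsb overlap Fdft1 and those of Ctsz overlap Nelfcd, each on the opposite strand. Reads within the shared bases of these pairs cannot be told apart, and their part in the counts was not measured. With all 225 cells replicate 1 went against the other libraries, at 222 against 149.8 CPM for Ctsb and 92.3 against 67.8 CPM for Ctsz. The log2 fold changes were then -0.37 and -0.76, and edgeR gave adjusted p = 0.875 and 0.763.

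Ctsd and Ctsl, the proteases with the highest CPM, differed little between the classes. Ctsd encodes cathepsin D, an aspartic protease, and was at 611, 1613 and 680.0 CPM in Krt-high cells against 547, 1447 and 677 CPM in Krt-low cells of the 203. Its log2 fold change was 0.13 with an SE of 0.11 (edgeR, adjusted p = 0.607). Ctsl, the cysteine protease cathepsin L, had a log2 fold change of 0.10 with an SE of 0.12 (edgeR, adjusted p = 0.747). Both genes have exons that overlap another annotated gene on the same strand, as does Glb1 among the other hydrolases.

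Ctsh and Lgmn stood on the other side from Ctsb and Ctsz. Ctsh, cathepsin H, an aminopeptidase, was at 24.1, 18.7 and 25.0 CPM in Krt-high cells and at 8.63, 13.5 and 17.0 CPM in Krt-low cells. Its log2 fold change was 0.85 with an SE of 0.41 (edgeR, adjusted p = 0.346). Lgmn, legumain, which cuts after asparagine and matures other cathepsins, was at 27.3, 371 and 197 CPM against 25.1, 242 and 115 CPM, higher in each library, with a log2 fold change of 0.54 (edgeR, adjusted p = 0.188). With the cells of low ribosomal share included, Lgmn stood at 296 CPM in Krt-low cells of replicate 1 in place of 25.1, and its log2 fold change was -0.48. Ctsa, which protects beta-galactosidase and neuraminidase, was at -0.31, Tpp1, a tripeptidyl peptidase, at -0.27, and Ctsc, which activates serine proteases, at -0.37; none passed.

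**Figure D3:**
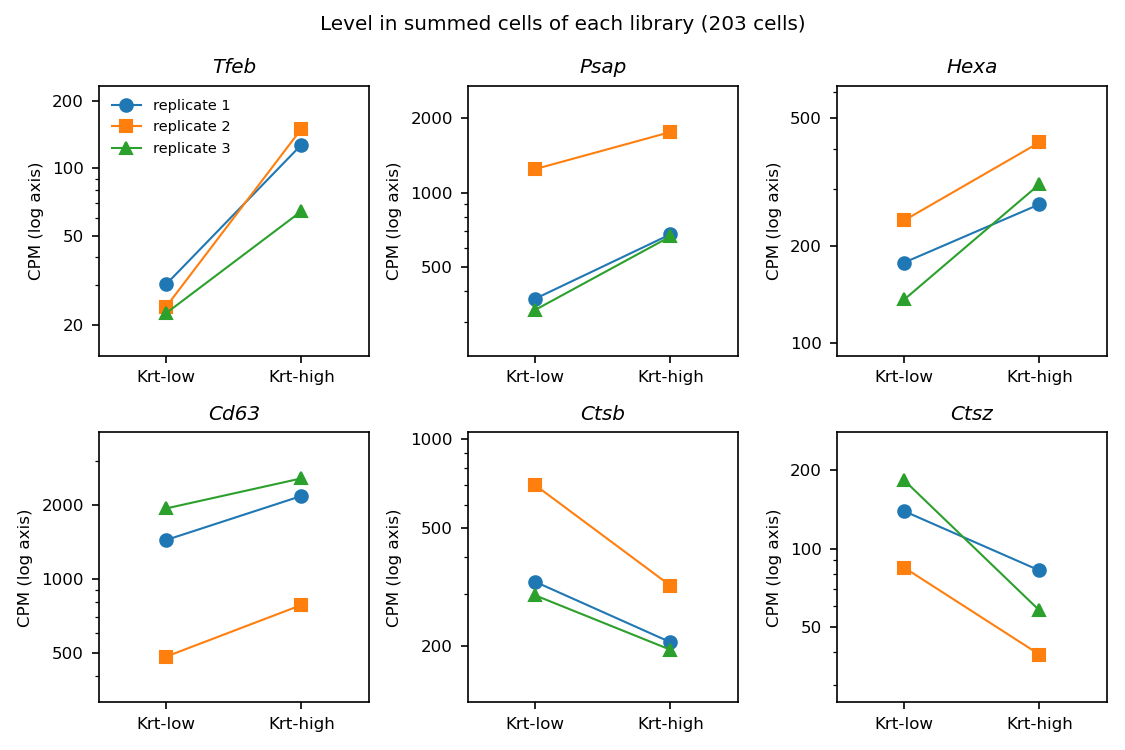
Points give the CPM, on a log axis, of the summed Krt-low and Krt-high cells of each library for the 6 called genes, with lines joining the 2 classes of 1 library (203 cells). All 3 lines rise for Tfeb, Psap, Hexa and Cd63 and fall for Ctsb and Ctsz; replicate 2 lies apart in level for Psap, Cd63 and Ctsb.

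Of the 6 membrane proteins Cd63 alone was called. Cd63 encodes a tetraspanin of late endosomes and exosomes and lies on chromosome 10 at 128900989 to 128912822. It was at 2171, 781 and 2560.3 CPM in Krt-high cells and at 1437, 482 and 1932 CPM in Krt-low cells. Replicate 2 was low in both classes, and each library was higher in Krt-high cells. The log2 fold change was 0.59 with an SE of 0.10, a 1.51-fold difference (edgeR, adjusted p = 0.0184). The call was lost without replicate 1 (adjusted p = 0.119) or replicate 3 (adjusted p = 0.0892). The annotation holds a pseudogene copy of Cd63, and how reads that fit both were counted is not given.

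Lamp2, a heavily glycosylated protein of the lysosomal membrane with a role in chaperone-mediated autophagy, was lower in Krt-high cells of each library without passing. Its levels were 72.9, 256 and 130.1 CPM against 140.1, 315 and 274 CPM in Krt-low cells, with a log2 fold change of -0.75 and an SE of 0.19 (edgeR, adjusted p = 0.0787). Without replicate 2 it passed, at adjusted p = 0.049986. Its relative Lamp1 was at 136, 80.8 and 86.7 CPM against 128, 66.0 and 128 CPM, a log2 fold change of -0.03 with an SE of 0.22. Scarb2, the receptor that carries glucocerebrosidase to the lysosome, was at -0.36, the calcium channel Mcoln1 at -0.05 and the cholesterol transporter Npc1 at -0.02.

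Of the 7 V-ATPase members that were tested, edgeR called 0 with all cells, where 0 had an unadjusted p below 0.05, and 0 without the cells of low ribosomal share, where 2 had one. DESeq2 called 0 and 1 of them, the 1 being Atp6v0d1. On the 203 cells edgeR too called Atp6v0d1 when the outer tertiles of the keratin level were compared, and without cells of high total. Their median log2 fold change on the 203 cells was 0.29, beside 0.00 over all genes. On those cells 2115 of all 12515 genes had an unadjusted edgeR p below 0.05. Atp6v0d1, the V0 subunit that joins the membrane ring to the central shaft, was at 139.8, 111 and 144 CPM in Krt-high cells and at 73.3, 63.4 and 110.1 CPM in Krt-low cells. These sums did not overlap, and the log2 fold change was 0.73 with an SE of 0.20 (edgeR, adjusted p = 0.1). Atp6v0a1, the V0 subunit that forms the proton path, was lower in each library, at 20.0, 40.0 and 23.2 against 26.3, 44.9 and 41.1 CPM, with a log2 fold change of -0.44.

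In the V1 sector, the catalytic subunit Atp6v1a was at 167, 777 and 274 CPM in Krt-high cells against 137, 712 and 228 CPM in Krt-low cells. The difference was small next to the spread between libraries, with a log2 fold change of 0.25 and an SE of 0.14 (edgeR, adjusted p = 0.417). Atp6v1b2, the other subunit of the ATP-binding head, rested on replicate 2, at 514 against 158 CPM there, and at 78.5 against 66.6 and 78.0 against 98.6 CPM in the others. Atp6v1h, which couples the sectors, had a log2 fold change of 0.29, and Atp6v1e1, a peripheral stalk subunit, one of -0.07. The accessory protein Atp6ap1 was higher in each library, at 31.2, 214 and 59.5 against 23.5, 139 and 35.9 CPM, with a log2 fold change of 0.61 (edgeR, adjusted p = 0.18).

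**Figure D4:**
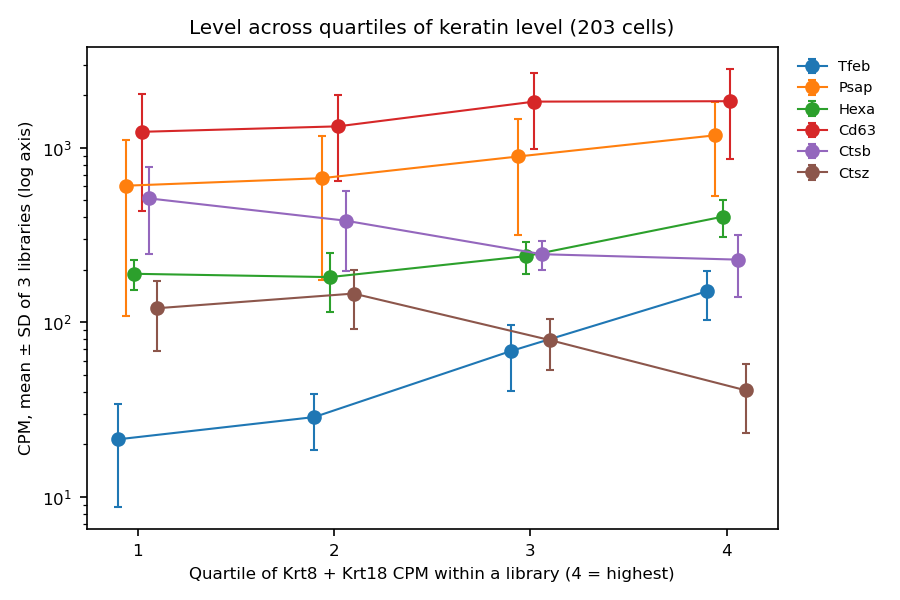
Points give the mean CPM of 3 libraries, on a log axis, with bars of 1 SD, for the 6 called genes in quartiles of the keratin level within a library (203 cells). Tfeb goes from 21.3 to 151 CPM and Hexa from 189.6 to 403 CPM between the lowest and the highest quartile, while Ctsb goes from 512 to 229 CPM and Ctsz from 120.4 to 40.7 CPM.

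The quartiles show where along the keratin level the called members differed, on the cells that the test also used. Hexa was level in the lower quartiles, at 189.6 ± 37.2 and 181 ± 67.4 CPM (SD of 3 libraries), and stood at 239.5 ± 49.6 and 403 ± 96.6 CPM in the upper ones. Ctsz was at 120.4 ± 52.4, 146 ± 54.2, 79.1 ± 25.7 and 40.7 ± 17.3 CPM. Ctsb was at 512 ± 266 CPM in the lowest and 229 ± 89.4 CPM in the highest quartile. For Psap and Cd63 the SD was wide in every quartile, since replicate 2 lay at another level.

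Other genes of the pathway were taken from lists by function, and their counts stand beside the 2.34% of all genes called higher and the 1.07% called lower on the 203 cells. An unadjusted edgeR p below 0.05 was found for 2115 of all 12515 genes there, and for 1240 of 12796 with all cells. With all 225 cells, edgeR called 2 of these hydrolases and cofactors (Neu1 and Gm2a) and 1 cystatin (Csta1) higher, and 0 genes of the other lists, where 3 had an unadjusted p below 0.05. Of 32 tested lysosomal hydrolases and cofactors outside the members, 4 were higher and 0 lower on the 203 cells (edgeR; 8 at an unadjusted p below 0.05). Neu1, the sialidase of the lysosome, was at 245, 356 and 129 CPM in Krt-high cells against 22.4, 36.8 and 39.0 CPM, a log2 fold change of 2.84 (edgeR, adjusted p = 0.00498). Gm2a, the activator protein that lifts GM2 to beta-hexosaminidase, was at 1090.1, 2653 and 1669 CPM against 194, 786 and 282 CPM, a log2 fold change of 2.30 (edgeR, adjusted p = 0.00111). Neither overlapped between the classes, and both also passed with all 225 cells, at log2 fold changes of 3.02 and 2.31. Smpd1, acid sphingomyelinase, was called at a log2 fold change of 0.70 and is named after its values were seen; with all cells it did not pass (edgeR, adjusted p = 0.497).

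The cystatins, inhibitors of cysteine cathepsins, held 2 called genes among 5 tested, and both were higher. Csta1 was at 101, 34.6 and 125 CPM in Krt-high cells against 4.47, 3.40 and 7.19 CPM, a log2 fold change of 4.02 (edgeR, adjusted p = 0.00119), and it passed with all cells too. Cstb was at 385, 304 and 1372 against 206, 124 and 448 CPM, a log2 fold change of 1.30 (edgeR, adjusted p = 0.00498), and did not pass with all cells (adjusted p = 0.116). Of 19 tested regulators of TFEB and its relatives and of mTORC1, 1 was higher and 0 lower, a single gene from which nothing is read about the list. It was Rragd, a GTPase that recruits mTORC1 to the lysosome, with a log2 fold change of 1.45 (edgeR, adjusted p = 0.041). With all cells Rragd stood at 219 CPM in Krt-high and 629 CPM in Krt-low cells of replicate 1, the reverse of the other libraries, and did not pass (edgeR, adjusted p = 0.949).

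Of 20 autophagy genes 1 was lower and 0 higher on the 203 cells, likewise a single gene; it was Ulk1, the kinase that starts autophagosome formation, with a log2 fold change of -1.46 (edgeR, adjusted p = 0.0128). With all cells it was at -0.97 and did not pass (edgeR, adjusted p = 0.68). On the 203 cells edgeR called 0 of 12 other V-ATPase subunits, 0 of 23 genes that sort proteins to the lysosome and 0 of 14 other lysosomal membrane proteins, where 6, 4 and 2 had an unadjusted p below 0.05. The 8 placental cathepsins, a rodent group of the later placenta, were not tested; 5 are listed at 0 in all cells.

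Markers of the cell layers moved with these differences. On the 203 cells, edgeR called 8 of 15 TE markers higher in Krt-high cells, among them Gata3 with a log2 fold change of 3.55. It called 1, Hand1, lower, and 14 of the 15 had a positive log2 fold change. Of 9 tested EPI markers 3 were called lower, and of 14 tested PrE markers 4 were called lower and 1, Dab2, higher. The summed TE markers stood at 1203, 2916 and 3716 CPM in Krt-high cells and at 239, 1162 and 329 CPM in Krt-low cells. Summed markers of blood cells and macrophages, which are rich in lysosomes, ran from 4.37 to 14.4 CPM in Krt-high cells and from 11.7 to 31.3 CPM in Krt-low cells, and 4 of 9 (Lyz2, Tyrobp, Hba-a1 and Hbb-bs) are listed at 0. The part of these markers in the members' differences was not tested.

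Among the Krt-low cells, no member passed the test between cells that leaned to PrE and cells that leaned to EPI. Cells were ranked within a library by the mean level of PrE markers minus that of EPI markers and divided at the median, giving 21 and 21, 16 and 16, and 19 and 20 cells. Of 11623 genes tested, with those markers left out, edgeR called 0% higher and 0% lower, with 412 at an unadjusted p below 0.05, and DESeq2 called 119. Of the 31 members 0 were called by either tool, and 0 had an unadjusted p below 0.05 in edgeR. The members' median log2 fold change of PrE-leaning over EPI-leaning cells was 0.04, beside -0.06 over all genes. The 19 cells of low ribosomal share of replicate 1 lie among these cells. Without cells of low ribosomal share the median was -0.05, beside -0.02 over all genes, and 9 members changed sign. Again 0 members and 0 genes were called by edgeR, with 740 genes at an unadjusted p below 0.05; DESeq2 was not run on these. With the cells included, Tfeb was at 0.19 with an SE of 0.70, Cd63 at -0.12 with an SE of 0.26, and Psap at 0.05 with an SE of 0.24.

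Libraries differed more in several members than the keratin classes did. Over all cells of a library, Asah1 was at 24.1, 479 and 187 CPM in replicates 1 to 3, Atp6ap1 at 19.5, 178 and 49.1 CPM, and Gaa at 71.7, 413 and 99.0 CPM. Cd63 went the other way, at 1228, 629.8 and 2289 CPM. Replicate 2 had the lowest ribosomal protein share, 4.73% of its counts beside 14.7% and 14.5%. With 1 library each, such differences have no replicate and were not tested.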

How the data were processed

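Counts of 3′ cDNA ends were measured in 3 single-cell libraries. Per the labels, an optimized Smart-seq2 protocol was used with an 8 nt cell barcode and an 8 nt molecular identifier. The deposited values are whole-number counts per gene and barcode, not normalized; per the submitters' processing notes, CASAVA 1.8, HISAT2 and HTSeq were among the tools and mm10 was the build. The annotation, strand setting and any collapsing of identifiers were not given in the sources used here, so counts may be reads or molecules. Totals per library were 30573711, 27610866 and 54444536 counts, with median totals per cell of 286484, 345414 and 608734.

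From these counts, CPM were computed on each cell's or class's total, and are not adjusted for gene length. Counts were summed per class and library and tested with edgeR 4.0.16 (filterByExpr, TMM factors, robust quasi-likelihood fit, library as a block, Benjamini-Hochberg adjustment, threshold 0.05). SEs were derived from its F statistics. The pairing comes from both classes being drawn from the same libraries. Classes were drawn on the cells that were then tested, so p-values leave out the uncertainty of drawing them; Krt8, Krt18 and the markers that drew a class stayed out of its counts. The scripts were tested on simulated data. No doublet caller was run on the hand-picked cells. An alternative left out cells with a total over 2.5 times the median of the cells of their library. Other alternatives used DESeq2 1.42.0, limma 3.58.1 on log2 CPM with a pseudocount of 1, other ways of dividing cells, other filters, cells thinned to 50000 counts, and each library left out.

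Values per library are given for called members, for the member of highest CPM in a role and for members that differ in direction from their role; of the other lists, up to 3 called genes are named, and 1 called gene is not reported here. Members and lists were chosen with earlier results of these data known. The comparison without cells of low ribosomal share was added after seeing the data. Positions are from GENCODE M21 and promoter letters from RefSeq.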

Additional observations from a re-analysis of the deposited data

Results flagged for a closer look

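Barcodes left out as cells, with fewer than 2000 genes, also held members' counts. The 63 barcodes had 319716 counts, of which 2554 belonged to the 33 genes, or 7988 CPM. No barcode is labelled as empty. In the cells of replicates 1 to 3 the 33 genes stood at 5270, 11433 and 8821 CPM, and the value of the left-out barcodes lay within that range. Groups of 3 libraries are too small for a test of a single outlying library.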

How the results depend on the processing

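Tfeb kept its direction under all 17 alternatives with all cells and was called under 7. On the 203 cells it was called under 15 of 16, and Psap under 13, Cd63 under 12, Hexa and Ctsb under 10 and Ctsz under 8. Atp6v0d1, not called in the main fit, was called higher under 3: DESeq2, the outer tertiles of the keratin level, and without cells of high total. Dividing the 203 cells by TE markers in place of keratins, edgeR called Tfeb, Psap and Cd63 higher and Grn and Lamp2 lower. Hexa, Ctsb and Ctsz were not called under that division. With all cells, 1 member was called higher under division by 2-means, DESeq2, a fixed dividing level, no filter on low counts, and without cells of high total; without cells of low ribosomal share 4 were higher and 2 lower. Leaving out a library gave 0 to 1 higher and 0 to 1 lower. On the 203 cells, leaving out a library gave 1 to 3 higher and 0 to 1 lower, limma on mean CPM gave 2 higher and 1 lower, DESeq2 gave 4 lower, and 2-means, cells with at least 4000 genes, and cells without high totals gave 1 lower each. The fit without the library block called 0 members, higher or lower, and 0 genes in both comparisons. On the 203 cells that edgeR fit gave Tfeb an adjusted p of 0.474.

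Over all genes, 150 were called with all cells. DESeq2 called 640, RLE size factors 9, TE markers in place of keratins 12, limma 38, no filter 280, thinned cells 85, the outer tertiles of the keratin level 29, removal of cells of low ribosomal share 427, and leaving out a library 27 to 335. On the 203 cells 427 became 1390 with DESeq2, 283 with limma, 672 without cells of high total, and 179 to 308 with a library left out. For the comparison among Krt-low cells DESeq2 called 119. Using limma on mean CPM also moved the median log2 fold change of all genes from 0.08 to -0.08. The causes were not tested. Among members that were not called, up to 9 changed sign in the first comparison and up to 12 among Krt-low cells. With all cells, members with an SE of 0.50 did not pass at log2 fold changes as large as 1.09 (Hexa).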
